A study of Mus musculus with 5 samples.

Results

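The 9 genes described here are Kdm6a, Kmt2d, Arid1a, Stag2, Ep300, Crebbp, Rb1, Trp53 and Tsc1, tumour suppressors and chromatin regulators that are recurrently inactivated in human bladder cancer. They were chosen by symbol from the 24970 genes counted in each library, and all 9 were measured and passed the low-count filter. RNA came from dissected urothelium, the epithelium that lines the bladder, of 3 Ncstn knockouts labelled Krt5CreERT2;Ncstnflox/flox (KO 1 to KO 3) and 2 wild types labelled C57Bl/6 (WT 1 and WT 2), all aged 10 weeks and with 1 library each. Ncstn encodes Nicastrin, a gamma-secretase subunit needed to release the signalling part of Notch receptors, and the comparison asks what its removal from Krt5-expressing basal cells and their progeny does to the urothelium. In normalised read counts (CPM, counts scaled to a common library size), Ncstn itself was at 114, 117 and 123 in the KO libraries and at 144 and 130 in WT 1 and WT 2, a log2 fold change of -0.21 ± 0.09 (SE) that did not pass (edgeR adjusted p = 0.133). The labels do not give the floxed exons, and a count over the whole gene does not show whether they were removed, so KO here means the libraries labelled Ncstn KO. The labels do not say whether each library came from a separate animal, so p-values measure the spread between these samples. The Cre allele and its induction have no counterpart in the wild types as labelled, and the knockout labels name no background strain, so loss of Ncstn cannot be told apart from these differences.

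Most of these genes encode proteins that set how chromatin is read. KMT2D is a methyltransferase that marks enhancers with histone H3 lysine 4 methylation, and KDM6A, which sits in the same complex, removes methyl groups from histone H3 lysine 27. EP300 and CREBBP acetylate histones at enhancers, ARID1A is a subunit of the SWI/SNF nucleosome remodeller, and STAG2 is a subunit of the cohesin ring. RB1 holds E2F transcription factors in check, p53 (Trp53) answers DNA damage, and TSC1 restrains the growth kinase complex mTORC1.

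Trp53 rose and Kmt2d fell in the knockouts, and the other 7 genes did not pass the test. Trp53 was 1.37-fold higher and Kmt2d was 1.53-fold lower (edgeR quasi-likelihood test, Benjamini-Hochberg adjusted p = 0.00847 and 0.0114). These are 2 of 9 genes called, in a comparison that called 2907 of 14779 tested genes (19.7%), with 9.64% called higher and 10.0% called lower. The share among the 9 is therefore close to that among all genes. Counts in the other gene lists below are to be read beside the same shares. Of the 9, 8 had a log2 fold change below 0, as did 49.1% of all tested genes, and the median was -0.28 for the 9 genes and 0.01 for all tested genes. These 8 genes all have over 4 kb of exon. In the exon length classes given below, the share of tested genes below 0 was 59.9% (4 to 8 kb), 73.9% (8 to 12 kb) and 80.4% (12 kb and over). Kmt2d, Stag2 and Crebbp were below both wild types in all 3 knockouts and Trp53 was above both. Of all tested genes 51.0% had no overlap between genotypes, with 25.1% lower and 25.9% higher in every knockout. In bulk tissue, fewer cells of a type and less RNA per cell cannot be told apart.

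**Figure D1:**
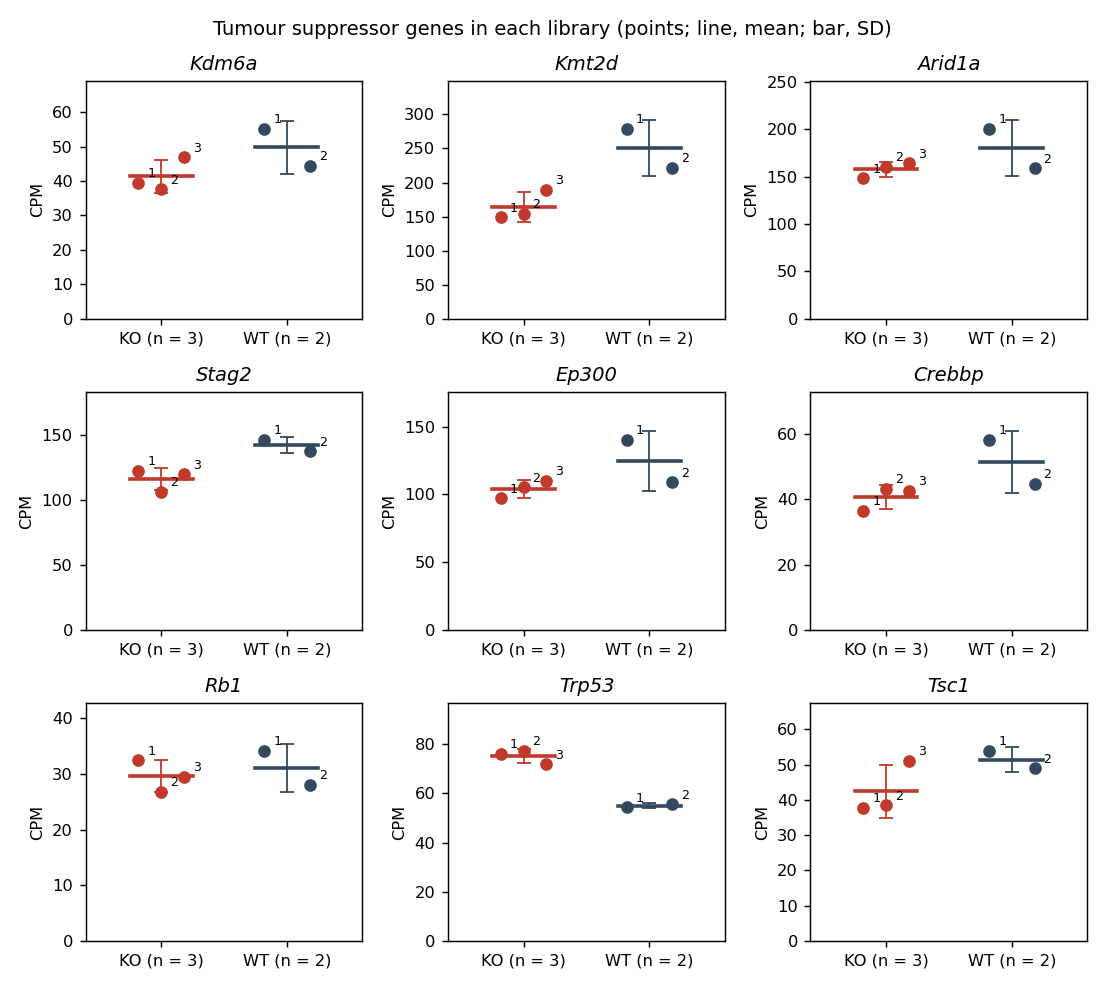
CPM (counts scaled to a common TMM-normalised library size, vertical axis from 0) of the 9 genes in each library, with KO on the left and WT on the right of each panel, numbered points for the libraries, a line for the mean and a bar for the SD (n = 3 KO, n = 2 WT). Trp53 lay between 71.9 and 77.3 CPM in KO, above 54.4 and 55.7 CPM in WT, and Kmt2d lay between 149 and 190 CPM in KO, below 279 and 222 CPM in WT.

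The libraries held 12608836 to 27188499 counts in genes, and every one of the 9 genes had at least 379 counts in each library, which sets the counting error of each value. WT 1 stood apart from the rest. Reads outside any gene made up 9.79% to 11.5% of the tally in KO libraries and 17.1% and 13.3% in WT 1 and WT 2. The precursor ribosomal RNA Rn45s stood at 5965 to 15620 CPM in KO libraries and at 79371 and 31423 CPM in WT 1 and WT 2. The nuclear RNA Malat1 was at 674, 747 and 764 CPM in the KO libraries and at 3949 and 2726 CPM in WT 1 and WT 2. Another nuclear RNA, Neat1, went the other way, at 2607, 2371 and 2958 CPM in the KO libraries and 1689 and 1696 CPM in WT (1.56-fold higher, edgeR adjusted p = 0.0101), and lost the call without WT 1 or WT 2 (0.0676 and 0.0543). WT 1 was the highest of the 5 libraries for 8 of the 9 genes and the lowest for Trp53. Among the knockouts, KO 3 was the highest for 5 of the 9 (Kdm6a, Kmt2d, Arid1a, Ep300 and Tsc1). The cells in the sample also differed in their markers: 6 of 14 urothelial markers rose and none fell (edgeR, 9 higher and 0 lower at an unadjusted p under 0.05), with a summed level of 18915 to 21275 CPM in KO and 13303 to 14958 CPM in WT, while 11 of 11 fibroblast markers fell, with 9245 to 10980 CPM in KO and 15562 to 17688 CPM in WT. Endothelial markers summed to 364 to 452 CPM in KO and 479 to 520 CPM in WT (3 of 8 fell). Smooth muscle markers summed to 299 to 446 CPM in KO and 326 to 453 CPM in WT (1 of 8 fell, median log2 fold change 0.04). Immune markers summed to 88.6 to 174 CPM in KO and 197 to 215 CPM in WT (2 of 7 fell). At an unadjusted p under 0.05 (edgeR), 0 endothelial markers were higher and 6 lower. For smooth muscle these numbers were 2 higher and 1 lower, and for immune markers 0 higher and 4 lower. With 1 library left out, the urothelial markers that rose numbered 2 (without WT 1) to 10 (without KO 3) and the fibroblast markers that fell numbered 4 (without WT 1) to 11 (without KO 3). The B cell marker Cd79a had 14 counts over all libraries and the T cell marker Cd3e had 68. The part of these differences in the changes of the 9 genes was not tested.

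Trp53, the gene of the p53 transcription factor, lies on chromosome 11 from 69580359 to 69591873 on the plus strand (GRCm38). Its level was 76.1, 77.3 and 71.9 CPM in KO 1 to KO 3, against 54.4 and 55.7 CPM in WT 1 and WT 2. The knockouts lay within a narrow band, the wild types within a narrower one, and the bands did not overlap. The means were 75.1 ± 2.84 CPM in KO (SD, n = 3) and 55.0 ± 0.934 CPM in WT (SD, n = 2), and the log2 fold change was 0.45 ± 0.09 (SE; edgeR adjusted p = 0.00847). Trp53 kept a positive fold change in all 15 alternative analyses, between 0.36 and 0.48, and passed in 14 of them. It did not pass without WT 1 (log2 fold change 0.43, edgeR adjusted p = 0.0747), where WT 2 stands alone and is assumed to vary as the knockouts do, and where 4.79% of all genes were called. A processed copy of the gene, Trp53-ps, lies elsewhere in the mouse genome, and reads placed equally well at several sites are tallied apart from genes, so the level may be understated in every library.

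The start of Trp53 faces that of Wrap53, a gene on the opposite strand, and the sequence between them is shown because it holds the promoter of the member that rose. It is the 103 bases before the Trp53 start up to the first Wrap53 exon, chr11:69580256-69580358 on the plus strand (RefSeq, GRCm38), and it is written beside the bases before the start of Kmt2d, the member that fell, chr15:98871206-98871455 on the minus strand.
Trp53: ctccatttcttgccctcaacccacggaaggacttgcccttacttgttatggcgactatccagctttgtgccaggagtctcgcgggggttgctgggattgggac
Kmt2d: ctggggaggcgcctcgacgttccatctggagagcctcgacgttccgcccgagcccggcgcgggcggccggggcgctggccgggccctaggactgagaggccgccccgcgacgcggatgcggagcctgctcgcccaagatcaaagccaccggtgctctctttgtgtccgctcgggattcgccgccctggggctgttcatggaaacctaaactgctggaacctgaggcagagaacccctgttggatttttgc
The stretches differ in base composition, with 56.3% G and C before Trp53 and 67.6% before Kmt2d. The letters TGGGAA, the core bound by the Notch effector RBPJ, were searched on both strands and would be in capitals, and neither stretch holds them. In the full RefSeq windows, from 250 bases before to 50 bases after each start, none of 8 windows of 7 matched members (Tsc1, Arid1a, Trp53, Ep300, Kmt2d, Crebbp and Kdm6a, with 2 starts for Arid1a) held these letters, against 25.6% of all 32851 windows. The 8 windows are few and hold 52.7% to 82% G and C, against a median of 52.7% for all windows. The share of all windows was not matched for base composition, and whether the 8 hold fewer matches was not tested. Wrap53, which encodes a telomerase and Cajal body factor, had a log2 fold change of -0.05 ± 0.15 (SE; edgeR adjusted p = 0.836).

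Some p53 target genes were higher in the knockouts. Among all tested genes, 9.64% were called higher and 10.0% lower, and the median log2 fold change was 0.01. Of 28 p53 target genes, 5 rose, none fell and 23 did not pass (edgeR; 8 higher and 1 lower at an unadjusted p under 0.05; DESeq2 called 4 higher and 0 lower), with a median log2 fold change of 0.02. Pmaip1, which encodes the pro-death protein Noxa, was at 20.7, 20.8 and 23.2 CPM in KO and 14.8 and 13.0 CPM in WT, 1.54-fold higher (edgeR adjusted p = 0.00959). Ei24 and the cyclin G1 gene Ccng1 were each 1.33-fold higher (edgeR adjusted p = 0.0259 and 0.0263). Dcxr was 1.35-fold higher and the death receptor gene Fas was 1.39-fold higher (edgeR adjusted p = 0.0270 and 0.04999), both named after their values were seen. A pair of widely used targets of p53, also named after their values were seen, did not pass. The cell cycle inhibitor gene Cdkn1a was at 55.1 ± 3.36 CPM in KO (SD, n = 3) and 63.2 ± 0.360 CPM in WT (SD, n = 2), and Mdm2, which encodes the ubiquitin ligase that degrades p53, was at 85.7 ± 2.22 CPM in KO and 74.8 ± 6.54 CPM in WT. The number of targets that rose was 1 without KO 1, 2 without KO 2, 0 without WT 1 and 1 without WT 2, and Pmaip1, Ei24 and Ccng1 each lost the call without WT 1 and without WT 2. Without KO 3, 6 rose and 1 fell.

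Of 11 regulators of p53, 1 fell, none rose and 10 did not pass (edgeR; 0 higher and 3 lower at an unadjusted p under 0.05; DESeq2 called 0 higher and 2 lower). The one that fell was Trp53bp1, which encodes the DNA break response protein 53BP1, at 94.4, 98.0 and 100.4 CPM in KO and 133 and 113 CPM in WT (edgeR adjusted p = 0.0399), and it did not pass without KO 1, KO 2 or WT 1 (edgeR adjusted p = 0.121, 0.0943 and 0.283) or with the length trend described below removed (0.200). Without KO 3, 1 regulator rose and 3 fell. Mdm4, a p53 inhibitor gene, had a log2 fold change of -0.30 and Hipk2, a p53 kinase gene, of -0.63, short of the threshold (edgeR adjusted p = 0.0624 and 0.0847). Within a library, the ratio of Trp53 to Mdm4 was 0.385, 0.399 and 0.343 in KO and 0.206 and 0.244 in WT. These genes differ in length, with 1868 bases of exon for Trp53 and 10859 for Mdm4. With the length trend removed, the log2 fold change of Mdm4 was -0.07 (edgeR adjusted p = 0.517). The ratio of Trp53 to Mdm2 was 0.892, 0.925 and 0.817 in KO and 0.684 and 0.793 in WT. The 3 genes whose pattern over the 5 libraries was most like that of Trp53 were Entpd6, Osbpl2 and Mycl, at root mean square distances of 0.00737, 0.00989 and 0.0126 between centred log2 CPM profiles.

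Kmt2d lies on chromosome 15 from 98831669 to 98871204 on the minus strand (GRCm38). Its level was 149, 154 and 190 CPM in the KO libraries, against 279 and 222 CPM in WT 1 and WT 2. Every knockout was below both wild types, and both groups were wide, with KO 3 the knockout nearest to WT 2. The means were 164 ± 21.9 CPM in KO (SD, n = 3) and 250 ± 40.8 CPM in WT (SD, n = 2), with a log2 fold change of -0.61 ± 0.13 (SE; edgeR adjusted p = 0.0114). Kmt2d was below 0 in all 15 alternatives, between -0.78 and -0.25, and passed in 13. The call ended without WT 1 (log2 fold change -0.44, edgeR adjusted p = 0.134) and when a smooth trend of each library on exon length was removed (-0.25, 0.0630).

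Its partners in enhancer methylation did not pass with all libraries, and whether their changes differ from that of Kmt2d was not tested. Kdm6a, on the X chromosome from 18162575 to 18279936, was at 39.5, 37.7 and 46.9 CPM in KO and 55.3 and 44.4 CPM in WT, so KO 3 overlapped the wild types (log2 fold change -0.28, 95% interval -0.57 to 0.01, edgeR adjusted p = 0.164). Kdm6a passed without KO 3 (log2 fold change -0.39, edgeR adjusted p = 0.0348). Of 8 other genes of the KMT2C and KMT2D complexes, none passed (edgeR; 1 higher and 2 lower at an unadjusted p under 0.05; DESeq2 called 0 higher and 1 lower), while 1 rose and 2 fell without KO 3 and 1 fell without WT 2. The nearest were Kmt2c, the closest relative of Kmt2d, at 110, 124 and 143 CPM in KO and 205 and 143 CPM in WT (edgeR adjusted p = 0.0555), Wdr5, with a log2 fold change of 0.28, and Pagr1a, with -0.31 (edgeR adjusted p = 0.0702 and 0.0706). The ratio of Kmt2d to Kmt2c was 1.36, 1.25 and 1.32 in KO and 1.36 and 1.55 in WT. Kmt2a, a related methyltransferase gene also mutated in bladder cancer, fell 1.50-fold, at 114, 115 and 139 CPM in KO and 211 and 157 CPM in WT (edgeR adjusted p = 0.0157). It did not pass without KO 1 or KO 2 (0.0545 and 0.0502), and its log2 fold change without WT 1 was -0.36. With the exon length trend removed, the log2 fold change of Kmt2a went from -0.59 to -0.26 (edgeR adjusted p = 0.0494). That of Kmt2c went from -0.47 to -0.16 (0.252).

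Kdm6a has a Y-linked relative, Uty, and a second relative, Kdm6b, on an autosome. The labels give no sex. The Y-linked genes Uty, Ddx3y, Kdm5d and Eif2s3y were counted in all 5 libraries, at 26.6 to 97.3 CPM, and Xist, the RNA of the inactive X, was at 0.545 to 1.08 CPM in KO and 0.836 and 1.31 CPM in WT. Y-linked counts beside so little Xist are the pattern of male tissue, seen in both genotypes. Uty was at 32.2, 26.6 and 31.8 CPM in KO and 42.4 and 32.7 CPM in WT (edgeR adjusted p = 0.133), and the ratio of Kdm6a to Uty was 1.23, 1.42 and 1.47 in KO and 1.30 and 1.36 in WT, with the genotypes overlapping. Kdm6b differed by -0.19 on the log2 scale (edgeR adjusted p = 0.299). Among the other sex-linked genes, Kdm5d and the X-linked Eif2s3x each had a log2 fold change of -0.32, Ddx3y of -0.28, Ddx3x of -0.11, Kdm5c of 0.07 and Eif2s3y of 0.09, and none passed (edgeR; 0 higher and 3 lower of 8 at an unadjusted p under 0.05; DESeq2 called 0 in either direction). Over the 492 tested genes of the X chromosome the median log2 fold change was -0.02.

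The histone acetyltransferase pair Ep300 and Crebbp did not pass. Ep300, on chromosome 15 from 81585351 to 81652077, was at 97.0, 105 and 110 CPM in KO and 140 and 109 CPM in WT, and WT 2 lay inside the range of the knockouts (log2 fold change -0.26, 95% interval -0.53 to 0.00, edgeR adjusted p = 0.143). Crebbp, on chromosome 16 from 4081328 to 4213997, was at 36.6, 43.2 and 42.7 CPM in KO and 58.3 and 44.9 CPM in WT (log2 fold change -0.34, 95% interval -0.64 to -0.05, edgeR adjusted p = 0.0913). Its lower wild type stood just above its highest knockout. Crebbp passed in 4 of 15 alternatives, among them no low-count filter (edgeR adjusted p = 0.0356) and leaving out KO 3 (0.0482) or WT 2 (0.0497), and Ep300 passed in 1, leaving out WT 2 (0.0489). The ratio of Ep300 to Crebbp was 2.43 to 2.65 in KO and 2.41 and 2.43 in WT. Of 9 other lysine acetyltransferase genes, Kat2a rose 1.25-fold (edgeR adjusted p = 0.0458), none fell and 8 did not pass (1 higher and 2 lower at an unadjusted p under 0.05; DESeq2 called 0 in either direction). That call was lost in 11 of 15 alternatives, DESeq2 and each library left out among them, and 2 other genes of the list fell without KO 3. Kat6a and Kat6b had log2 fold changes of -0.31 and -0.33 (edgeR adjusted p = 0.0939 and 0.0881).

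Arid1a, on chromosome 4 from 133679008 to 133756769, was at 149, 161 and 164 CPM in KO and 201 and 159 CPM in WT. WT 2 again lay among the knockouts, and the difference did not pass (log2 fold change -0.19, 95% interval -0.44 to 0.06, edgeR adjusted p = 0.261). Its alternative subunit gene Arid1b was at 85.6, 95.2 and 93.7 CPM in KO and 93.0 and 79.0 CPM in WT (log2 fold change 0.09, edgeR adjusted p = 0.590), and the ratio of Arid1a to Arid1b was 1.74, 1.69 and 1.75 in KO, below 2.16 and 2.01 in WT. With the length trend removed, Arid1b passed as higher (log2 fold change 0.33, edgeR adjusted p = 0.0170), and Arid1a was at -0.02 (0.904). Of 23 tested SWI/SNF subunit genes other than Arid1a, 2 rose, 1 fell and 20 did not pass (DESeq2 called 2 higher and 1 lower). The core subunit gene Smarcb1 was 1.40-fold higher (edgeR adjusted p = 0.0152), Dpf2 was 1.24-fold higher (0.0447) and Bicral was 1.29-fold lower (0.0255). None of these 3 passed without WT 1, KO 1 or KO 2, Bicral alone passed without WT 2, 1 subunit gene rose and 3 fell without KO 3, and with the length trend removed 5 subunit genes rose and 2 fell. The call of Dpf2 was lost in 11 of 15 alternatives, among them DESeq2 (adjusted p = 0.0522), upper-quartile scaling (edgeR adjusted p = 0.0742) and the analysis without KO 3 (0.0935).

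Stag2, on the X chromosome from 42149317 to 42277185, was at 122, 106 and 120 CPM in KO and 146 and 137 CPM in WT. All knockouts were below both wild types, yet the difference did not pass (log2 fold change -0.29, 95% interval -0.51 to -0.07, edgeR adjusted p = 0.0614). Stag2 was the member closest to the threshold among the 7, and it passed in 5 of 15 alternatives, among them DESeq2 (adjusted p = 0.0415) and the analysis without KO 3 (edgeR adjusted p = 0.0456). Stag1, whose product replaces STAG2 in part of the cohesin rings, was at 50.6, 52.3 and 56.1 CPM in KO and 59.1 and 53.3 CPM in WT (edgeR adjusted p = 0.573), and the ratio of Stag2 to Stag1 was 2.03 to 2.42 in KO and 2.47 and 2.58 in WT. Of 13 other cohesin genes, Esco2, an acetyltransferase gene used in S phase, fell to 0.333 ± 0.237 CPM in KO (SD, n = 3), against 1.41 ± 0.370 CPM in WT (SD, n = 2; edgeR adjusted p = 0.0310), none rose and 12 did not pass (0 higher and 2 lower at an unadjusted p under 0.05; DESeq2 called 0 higher and 1 lower). Pds5a and Cdca5 had log2 fold changes of -0.26 and -1.01 (edgeR adjusted p = 0.0658 and 0.162). Esco2 did not pass without KO 2, WT 1 or WT 2 (edgeR adjusted p = 0.0667, 0.130 and 0.182), and 2 genes of the list fell without KO 3.

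Rb1, on chromosome 14 from 73183673 to 73325822, differed least among the 9. It was at 32.5, 26.8 and 29.5 CPM in KO and 34.2 and 28.1 CPM in WT, so the groups overlapped (log2 fold change -0.07, 95% interval -0.36 to 0.21, edgeR adjusted p = 0.730). Of its exon bases, 105 are shared with Rcbtb2 on the other strand. The related pocket protein genes Rbl1 and Rbl2 had log2 fold changes of 0.22 and -0.22 (edgeR adjusted p = 0.211 and 0.197). Among 12 genes of the RB family and the E2F factors other than Rb1, 2 fell, 1 rose and 9 did not pass (DESeq2 called 2 lower and 1 higher). E2f1, an activating factor, was at 2.22, 2.95 and 3.74 CPM in KO and 5.85 and 5.79 CPM in WT, 2.00-fold lower (edgeR adjusted p = 0.0221). E2f7 was 3.83-fold lower at under 1 CPM in every knockout (0.0216), and E2f4, a repressive E2F gene, was 1.32-fold higher (0.0180). None of the 3 passed without KO 1, WT 1 or WT 2, and E2f4 did not pass without KO 2 either.

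Genes driven by E2F were measured beside Rb1. Of 20 E2F targets, 5 fell, none rose and 15 did not pass (edgeR; 0 higher and 10 lower at an unadjusted p under 0.05; DESeq2 called 0 higher and 5 lower), with a median log2 fold change of -0.46. The replication helicase gene Mcm6 fell 5.17-fold, at 5.34, 5.29 and 5.37 CPM in KO and 27.5 and 27.8 CPM in WT (edgeR adjusted p = 7.62e-06), while the other subunit genes Mcm2, Mcm3, Mcm4, Mcm5 and Mcm7 differed by -0.06, -0.39, -0.15, -0.50 and 0.09 on the log2 scale, short of the threshold. The mitotic kinase gene Cdk1 fell 2.89-fold (edgeR adjusted p = 0.00812), and Tk1 and Ccna2, named after their values were seen, fell 1.71-fold and 2.18-fold. In KO 1 to KO 3, Cdk1 had only 41, 16 and 13 counts and Ccna2 had 69, 26 and 14. The number that fell was 3 without KO 2, 1 without WT 1 and 1 without WT 2. Mcm6 passed with each library left out, whereas Cdk1 lost the call without either wild type (edgeR adjusted p = 0.0832 without WT 1 and 0.0659 without WT 2).

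Tsc1, on chromosome 2 from 28641228 to 28691167, was at 37.7, 38.4 and 51.2 CPM in KO and 53.9 and 48.9 CPM in WT. KO 3 lay among the wild types and the other knockouts lay below them (log2 fold change -0.28, 95% interval -0.59 to 0.02, edgeR adjusted p = 0.175). Tsc1 passed without KO 3 (log2 fold change -0.45, edgeR adjusted p = 0.00929). Its partner gene Tsc2 was at 107, 109 and 101 CPM in KO and 123 and 114 CPM in WT (log2 fold change -0.17, edgeR adjusted p = 0.214), and the ratio of Tsc1 to Tsc2 was 0.353, 0.354 and 0.506 in KO and 0.438 and 0.428 in WT. Of 23 other genes of the TSC and mTORC1 pathway, 2 rose, none fell and 21 did not pass (edgeR; 4 higher and 2 lower at an unadjusted p under 0.05; DESeq2 called 2 higher and 2 lower). Eif4ebp1, a translation repressor gene and mTORC1 substrate, was 1.33-fold higher and Akt1s1, which encodes the mTORC1 inhibitor PRAS40, was 1.26-fold higher (edgeR adjusted p = 0.0186 and 0.0356). Rictor, an mTORC2 subunit gene, differed by -0.39 on the log2 scale (0.0553). The number that rose was 1 without KO 1, 0 without KO 2, 0 without WT 1 and 1 without WT 2, and 2 genes of the list fell without KO 3.

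Per kb of exon, Trp53 was the most abundant of the 9, with a mean of 40.2 CPM per kb in KO and 29.5 CPM per kb in WT. Stag2 and Arid1a followed, each at 18.4 CPM per kb in KO, and their libraries overlapped in both genotypes, at 22.5 CPM per kb for Stag2 and 21.0 CPM per kb for Arid1a in WT. Ep300 was at 10.9 CPM per kb in KO and 13.0 CPM per kb in WT and Kmt2d at 8.29 CPM per kb in KO and 12.6 CPM per kb in WT, and the libraries of this pair overlapped only in WT. Kdm6a, Rb1 and Tsc1 came next, at 6.96, 6.36 and 5.48 CPM per kb in KO and at 8.40, 6.68 and 6.64 CPM per kb in WT. In KO, Kdm6a overlapped Kmt2d, Rb1 and Tsc1, and Rb1 overlapped Tsc1. Crebbp was the least abundant, at 3.77 CPM per kb in KO and 4.77 CPM per kb in WT, and did not overlap Tsc1 in either genotype.

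Over all genes, fold changes were lower where the summed exon length was greater. The median log2 fold change was 0.12 over 3555 tested genes with under 2 kb of exon, 0.04 over 5669 genes of 2 to 4 kb, -0.07 over 4471 genes of 4 to 8 kb, -0.19 over 779 genes of 8 to 12 kb and -0.29 over 204 genes of 12 kb and over. The share called lower was 5.40% in the shortest class and 26.5% in the longest. Trp53, with 1868 bases of exon, is in the first class, and 13.6% of its genes had a higher fold change. Kmt2d, with 19830 bases, is in the last class, and 23.5% of its genes had a lower one. Arid1a and Rb1 lay at the middle of their classes, with 50.4% and 49.4% of genes lower, and Kdm6a, Stag2, Tsc1, Ep300 and Crebbp had 26.9% to 41.5% lower. With the length trend removed, the log2 fold change of Trp53 was 0.36 (edgeR adjusted p = 0.0116) and the median of the 9 genes was -0.11. The part of Rn45s, Malat1 and the reads outside genes in the fall of Kmt2d was not tested beyond leaving the RNA entries out of the table.

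**Figure D2:**
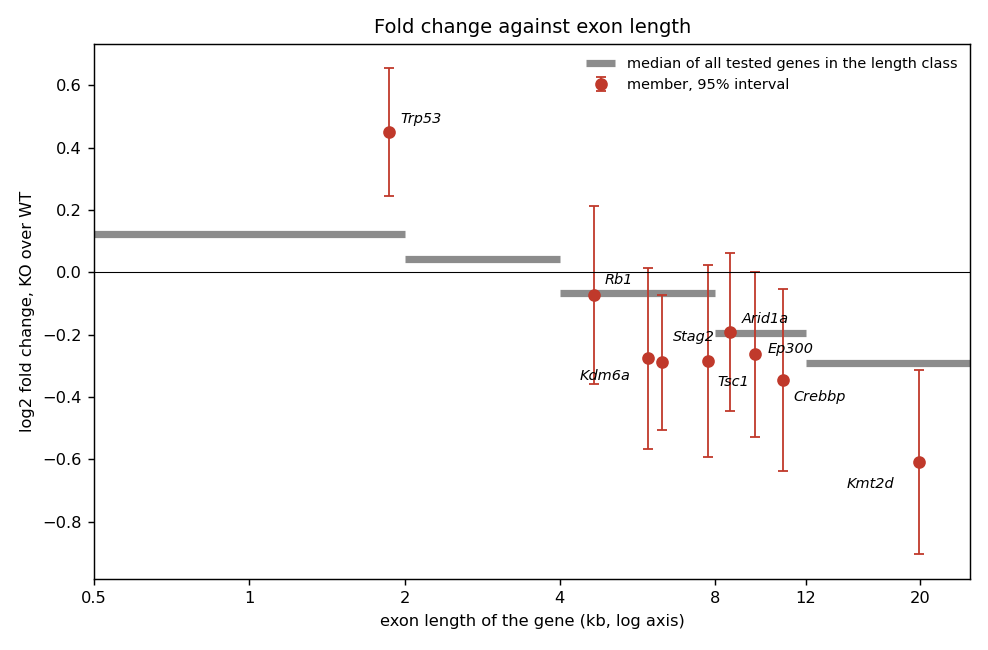
Log2 fold change, KO over WT, against exon length in kb (log axis) for the 9 genes, as points with 95% intervals, and the median of all tested genes in each of 5 length classes, as grey lines. The medians run from 0.12 under 2 kb to -0.29 at 12 kb and over, with Trp53 at 0.45 above the shortest class and Kmt2d at -0.61 below the longest.

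**Figure D3:**
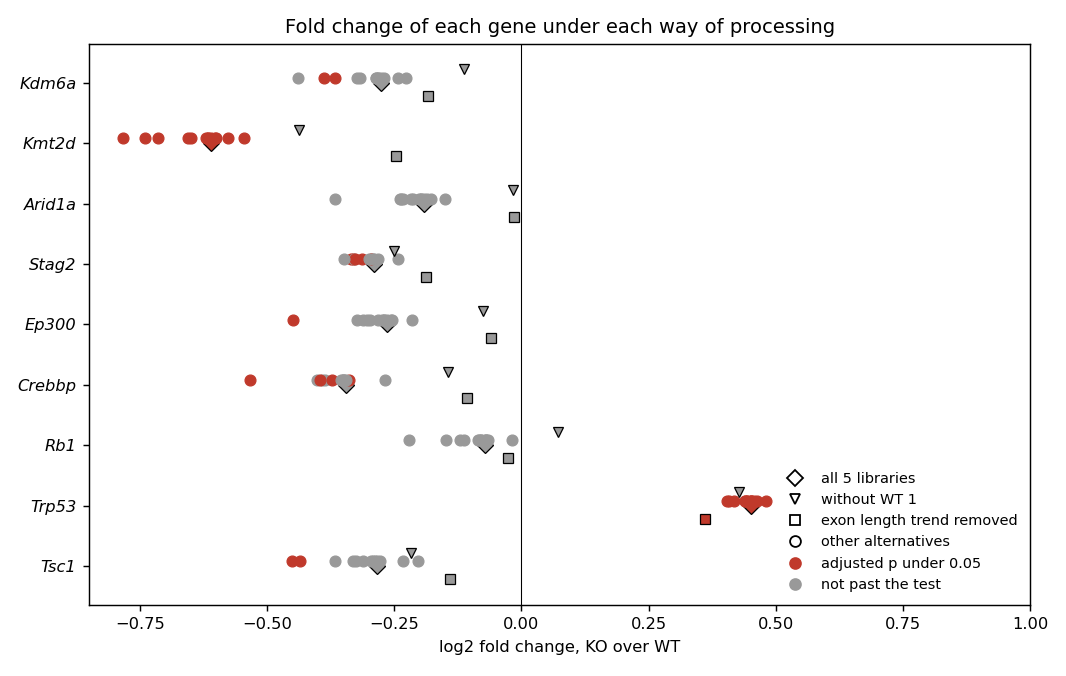
Log2 fold change, KO over WT, of each gene with all 5 libraries (diamond) and under 15 alternatives, among them leaving out WT 1 (triangle) and removing the exon length trend (square), red where the adjusted p is under 0.05. Trp53 stayed between 0.36 and 0.48 and Kmt2d between -0.78 and -0.25, and Rb1 is the gene whose sign changed, to 0.07 without WT 1.

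The remaining relatives were those of Trp53. Trp73, the p73 gene, was at 1.21, 2.17 and 0.389 CPM in KO and 0.105 and 0.139 CPM in WT, with 73 counts over the knockouts and 4 over the wild types. The ratio of counts per library size was 10.9, with a 95% interval of 4.08 to 41.1 that covers counting error alone (edgeR adjusted p = 0.0204), and Trp73 did not pass without WT 1 or WT 2 (0.195 and 0.108) and was below the count filter without KO 1 or KO 2. KO 3 had 5 of those counts and stood well below KO 1 and KO 2. Trp63, the p63 gene of basal urothelial cells, was at 391, 326 and 405 CPM in KO and 397 and 325 CPM in WT.

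Of 37 other genes recurrently mutated in bladder cancer, 1 rose, 1 fell and 35 did not pass (DESeq2 called 1 higher and 3 lower), with a median log2 fold change of -0.02. The gene that rose was Elf3, an epithelial transcription factor, at 214, 216 and 186 CPM in KO and 136 and 144 CPM in WT (edgeR adjusted p = 0.00530), and it did not pass without WT 1 (0.0681). The gene that fell was Kmt2a, given above, and without KO 3 the list had 3 genes that rose and 6 that fell. Of 19 genes of the Polycomb complexes and their BAP1 and ASXL partners, 2 rose, 1 fell and 16 did not pass (DESeq2 called 2 higher and 0 lower). Ezh2, which encodes the methyltransferase that sets the H3 lysine 27 mark KDM6A removes, was at 47.8, 47.9 and 38.9 CPM in KO and 31.8 and 27.7 CPM in WT, 1.51-fold higher (edgeR adjusted p = 0.0104), Rbbp7 was 1.24-fold higher (0.0457) and Phf19 was 1.90-fold lower (0.0341). Ezh2 did not pass without WT 1 or WT 2, Phf19 did not pass without KO 1, WT 1 or WT 2, and Rbbp7 did not pass with any 1 library left out. Phf19 also lost the call with DESeq2 (adjusted p = 0.0575), and Rbbp7 with upper-quartile scaling, the filter at 5 CPM and the RNA entries left out (edgeR adjusted p = 0.0740, 0.0706 and 0.0505). Without KO 3, 1 Polycomb gene rose and 2 fell.

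**Figure D4:**
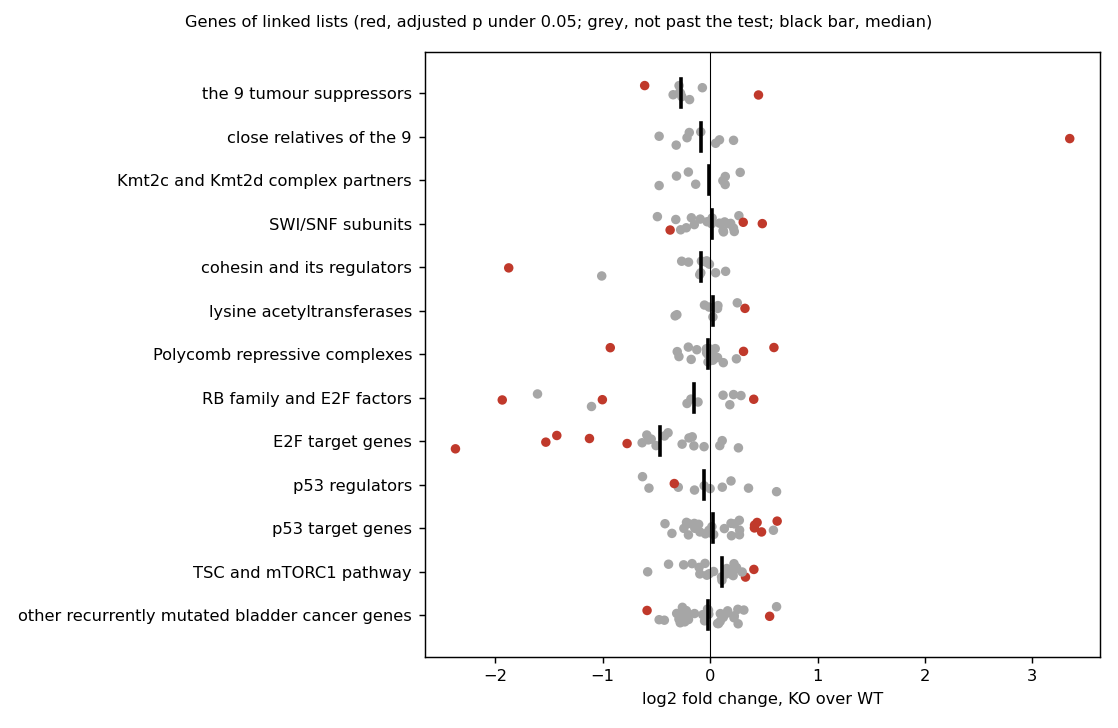
Log2 fold change, KO over WT (horizontal axis), of every tested gene in the list of the 9 tumour suppressors and in 12 linked lists, with red points for an adjusted p under 0.05, grey points for genes not past the test and a black bar for the list median. The median of the 9 is -0.28, that of E2F targets is -0.46 and that of p53 targets is 0.02, and the point at 3.35 is Trp73.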

How the data were processed

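RNA-seq of dissected mouse bladder urothelium was used, with 3 Ncstn KO and 2 WT libraries made from total RNA with an Illumina TruSeq kit, per the labels' protocols. The deposited values are raw counts of reads per gene symbol, with no normalization. The submitters' processing notes name HISAT2 2.1.0, HTSeq 0.11.1, DESeq2 and the build mm10. The annotation, the strand setting and the read filters were not given in the sources used here. Reads from overlapping genes on opposite strands may therefore be shared. The HTSeq summary entries (reads outside genes, ambiguous, not unique) were left out of library sizes, and genes held 49.3% to 60.6% of each tally.

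Counts were tested in R 4.3.3 with edgeR 4.0.16 (TMM scaling, minimum count of 10 in a gene and 15 in total, quasi-likelihood test, Benjamini-Hochberg adjustment over all 14779 tested genes, threshold 0.05), with no covariate. CPM were computed with edgeR from TMM-scaled library sizes, standard errors were derived from the quasi-likelihood F, and the estimated biological coefficient of variation was 0.109. DESeq2 1.42.0 and limma-voom (limma 3.58.1) were alternatives, along with other scalings, filters, a robust fit, a replicate block, leaving out Rn45s, Malat1 and Neat1, removing the trend of each library on exon length, and leaving out each library. The code was tested on simulated data. Exon lengths and positions come from GENCODE (GRCm38), which matched 24537 of 24970 symbols (98.3%), and promoter sequences from RefSeq (GRCm38.p6), which matched 7 of the 9 genes. Replicates of 1 genotype differed from each other by more than sampling noise.

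The 9 genes and all lists were chosen with earlier results of these data known. All 9 are named, with every close relative, every sex-linked gene, up to 3 genes with the smallest p in each linked list, and the 3 genes closest in profile to the member with the smallest p. Other genes were named after their values were seen, among them Ncstn, Wrap53, Tsc2 and the Mcm genes other than Mcm6. The values of 1 gene that the rule names are not reported here. Intervals given for counts cover counting error only.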

Additional observations from a re-analysis of the deposited data

How the results depend on the processing

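Kmt2d stayed below 0 and Trp53 above 0 under all 15 alternatives, and Rb1 was the only 1 of the 9 genes to change sign, to 0.073 without WT 1. Among all genes, 2907 were called, 4637 with a replicate block, and 715 to 3989 with 1 library left out, the lowest without WT 1 and the highest without KO 3. Without WT 1 or WT 2 the lone wild type is assumed to vary as the knockouts do. The number of the 9 genes that rose was 0 to 1 with 1 library left out. The number that fell was 2 with upper-quartile scaling, 2 with no low-count filter, 2 with a filter at 5 CPM in 2 libraries, 2 with DESeq2, 5 with the replicate block, 0 with the length trend removed and 0 to 5 with 1 library left out. The labels state no pairing by replicate number. The correlations of deviations (-0.06 and 0.05) cannot decide it, because with 2 wild types their deviations mirror each other. The block added Kdm6a, Stag2, Crebbp and Tsc1 to the genes that fell (edgeR adjusted p = 0.0134, 0.0382, 0.0115 and 0.00258). Replicate number 3 exists only in KO, so the block leaves KO 3 out of the genotype contrast. That contrast rests on KO 1 and KO 2 against WT 1 and WT 2. It is therefore not separate from the analysis without KO 3, where the same genes also passed (edgeR adjusted p = 0.0348, 0.0456, 0.0482 and 0.00929). No scaling moved the median of all genes by over 0.1. Some other named genes, none of them called with all 5 libraries, changed sign. The log2 fold change of Trp63 was -0.0079 with the replicate block and -0.10 to 0.20 with 1 library left out. With the length trend removed it was 0.012 for Stag1, 0.072 for Xist and -0.0070 for Eif2s3y. With 1 library left out it ranged from -0.59 to 0.056 for Xist, from -0.041 to 0.21 for Arid1b, from -0.029 to 0.15 for Kdm5c and, among the 9, from -0.22 to 0.073 for Rb1. Over the named genes, 743 alternative values kept their direction and side of the threshold, 96 lost the call, 68 gained it and 10 changed sign. The cause of these shifts was not tested. Depth limits E2f7, Esco2, Cdca5, Trp73, Xist, Cdk1, Ccna2 and Phf19, which had few counts in some libraries. Phf19 had 49, 40 and 23 counts in KO 1 to KO 3, and Cdca5 had 30, 5 and 11.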
